A study of Zea mays with 22 samples.

Results

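The comparison described here sets 8 h of UV-B at high intensity against 8 h at low intensity in maize. It rests on 4 of the 22 arrays of the study. All 4 were chosen by their titles, which name 8 h high UV-B on 2 arrays and 8 h low UV-B on the other 2. The values played no part in that choice. Each array carried 2 labelled RNAs, one from UV-B exposed material and one from its control, so an array gives the ratio of exposed to control for each spotted probe. On array 1 of each regime the exposed RNA was in the first channel, and on array 2 it was in the second. The same set of 8 arrays also holds 2 h high and 4 h medium UV-B with 2 arrays each, which entered the fit to estimate the spread. The titles and source names give no line, organ, plant age, lamp output or dose for these arrays, and they do not say whether the paired arrays came from separate plants. The p-values therefore measure the spread that all 8 arrays leave after a term for the array number, and this spread may be technical.

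Ultraviolet B is the short-wave part of sunlight that reaches the ground. Plants sense it through a dedicated photoreceptor, and at strong exposure they also respond to the damage it does to DNA, proteins and membranes. Known responses include the synthesis of protective phenylpropanoids, antioxidant enzymes and defence proteins, and lower expression of genes for photosynthesis. Comparing intensities at the same duration asks which of these responses depend on how strong the light is. At a fixed duration the total UV-B received rises with the intensity, so intensity and total dose cannot be told apart here. The titles also carry the word Reciprocity, which they do not explain.

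Values are log2 ratios with the median of each array set to 0, averaged over the 3 neighbouring spots of a probe. A positive ratio is read as higher in exposed material than in control, by assumption, since the sources used here do not state the direction. A difference is the mean of the high arrays minus the mean of the low arrays. If the whole table runs the other way, higher and lower exchange throughout. Array 2 of each regime, whose channels were exchanged, is read as already turned to the same direction, which is also not stated. In that reading the 2 arrays correlated (Pearson) at 0.80 for 2 h high and at 0.23 for 4 h medium. The direction of the low arrays relative to each other is not settled, and every difference below depends on that reading. Between 14364 and 15853 of 17296 spots had a value on the 4 arrays. Neighbouring spots of a probe differed by a median SD of 0.0415 and 0.0427 on the high arrays and of 0.0470 and 0.0628 on the low arrays. With 2 arrays a regime, the number of arrays limits the precision.

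The low arrays disagreed with each other. Over 4911 probes with a value on both, they correlated at -0.36 (Pearson) and -0.43 (Spearman), and 32.9% of probes had the same sign. The high arrays correlated at 0.18 (Pearson) and -0.01 (Spearman), with the same sign in 46.5% of probes. Probes on 1 array are not independent, so these correlations are descriptions. With array medians at 0, the arrays at 8 h of the same channel orientation agreed more across intensities than those of the same intensity did. Array 1 of high with array 1 of low gave 0.51, and array 2 of high with array 2 of low gave 0.31. Arrays 1 and 2 differed by more than 0.5 in 35.5% of probes at low and in 14.8% at high. A gap of more than 1 occurred in 5.05% of probes at low and in 0.383% at high. Low array 2 also had the widest spread over probes, with an SD of 0.430, against 0.181 on low array 1 and 0.267 and 0.275 on the high arrays.

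**Figure D1:**
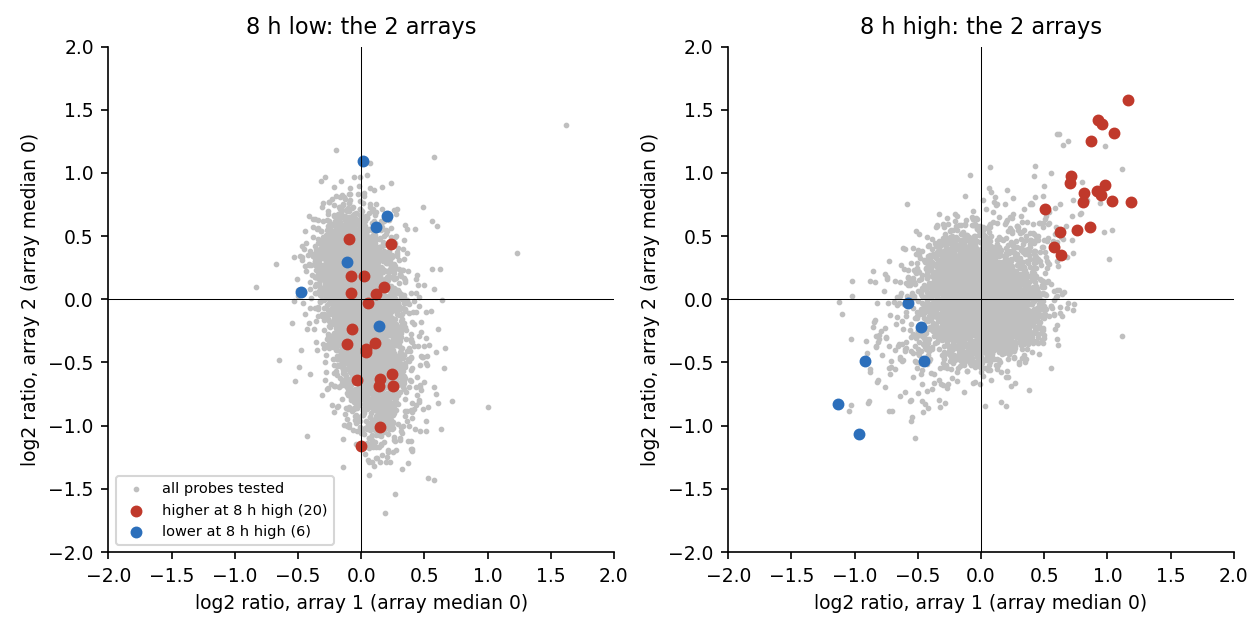
Log2 ratio of each tested probe on array 1 (x axis) against array 2 (y axis) for 8 h low (left) and 8 h high (right), each array with its median at 0. The 20 probes higher at 8 h high (red) lie at upper right in the high panel and near 0 on low array 1, while on low array 2 they spread from -1.16 to 0.48. Outside the axes lie 2 probes of the low panel and 3 of the high panel.

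Low array 2 further differed from the rest by position. The order of the spots divides the array into 8 blocks, and block membership accounted for 44.6% of the variance of low array 2. The other 3 arrays had 14.0% to 18.4%. Block medians on low array 2 ran from -0.49 in block 3 to 0.35 in block 8, with -0.34 in blocks 1 and 5. With every block median set to 0, array 1 of high with array 1 of low gave 0.49. Array 2 of high with array 2 of low then gave 0.36. The high arrays correlated at 0.39 in that setting, and the low arrays still negatively, at -0.19. Because of this disagreement, each low array is shown separately below, and each call is given with and without low array 2. The part of block position in the calls was not tested beyond the values given.

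**Figure D2:**
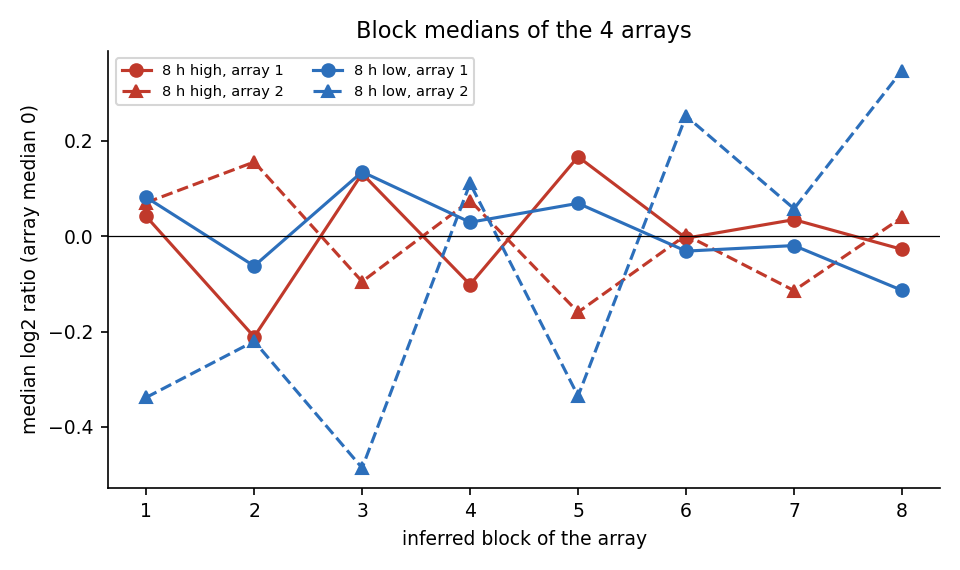
Median log2 ratio of the probes in each of 8 inferred blocks on the 4 arrays (red, 8 h high; blue, 8 h low; circles, array 1; triangles, array 2). Low array 2 runs from -0.49 to 0.35, a wider range than any of the other 3 arrays.

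Few probes separated the intensities. Of 4872 probes with a value on all 4 arrays, 20 were higher at 8 h high (0.411%) and 6 were lower (0.123%), together 26 (0.534%), at an adjusted p under 0.05 in limma with Benjamini-Hochberg adjustment over all probes. A further look at unadjusted p under 0.05 found 532 probes (10.9%). The higher probes differed by 1.70-fold to 2.73-fold and the lower ones by 1.72-fold to 1.92-fold. Among 352 tested probes with a gene name, 4 were called (1.14%), all higher. They belong to PDIL1-2, a protein disulfide isomerase, CNX, the lectin chaperone calnexin, MMT1, a methionine S-methyltransferase, and psei2, a proteinase inhibitor. The 22 other called probes have no gene name here.

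The values of the 26 called probes on the 4 arrays are given here as a description. These probes were chosen by the difference on the same arrays. Their order on the arrays largely follows from that choice and is no separate evidence. The 20 higher probes stood above the array median on both high arrays, with medians of 0.87 and 0.83. On low array 1 they lay between -0.11 and 0.26, where the SD over all its probes was 0.181. On low array 2 they ranged from -1.16 to 0.48, with a median of -0.35, where the SD over all its probes was 0.430. The mean of the high arrays exceeded low array 1 by 0.34 to 1.28 (median 0.84) and low array 2 by 0.64 to 1.86 (median 1.05). The median gap was thus wider against low array 2. For the 6 lower probes the differences were -1.12 to -0.32 against low array 1 and -1.40 to -0.77 against low array 2. In all 26 both high arrays lay beyond both low arrays. Over all tested probes such separation occurred upward in 475 (9.75%) and downward in 564 (11.6%).

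**Figure D3:**
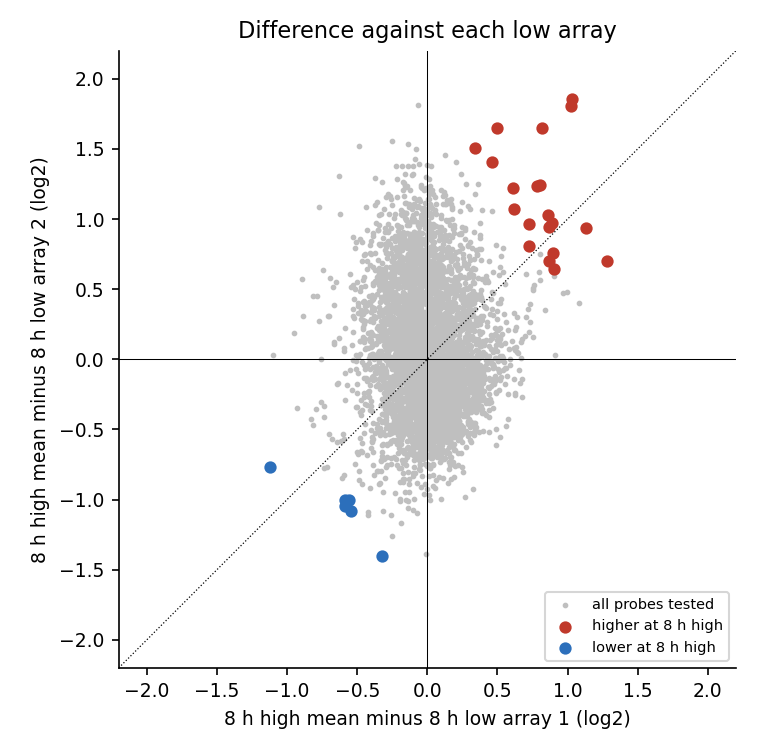
Mean of the 8 h high arrays minus 8 h low array 1 (x axis) against the same mean minus 8 h low array 2 (y axis), in log2, for all tested probes (grey), the 20 higher (red) and the 6 lower (blue). All called probes have the same sign on both axes, and most higher ones lie above the dotted line of equality.

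How many probes passed depended on the arrays and on the model. The fit holds a term for channel orientation, which is the same as a block for the array number. Without this replicate block 0 probes passed limma (204 at unadjusted p under 0.05). Leaving out either high array also left 0 (527 without array 1 and 172 without array 2 at unadjusted p under 0.05). Without low array 2, limma called 1 probe (0.0194% of 5149), that of the chitinase chn1, and none of the 26. Without low array 1 it called 550 higher (11.3%) and 174 lower (3.57%) of 4868, all 26 among them. A lone low array is assumed in these fits to vary like the other groups. The 26 probes were chosen on arrays that these fits share, so their results in them are no separate evidence. The reading of direction mattered as well. With the sign of low array 2 turned, limma called 0 probes (662 at unadjusted p under 0.05), the difference of MMT1 went from 1.07 to -0.088 and that of probe 7_703 from -0.86 to 0.23. With array 2 of every regime turned it also called 0 (79 at unadjusted p under 0.05). That setting also reverses the sign of the correlation of 0.80 between the arrays of 2 h high.

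The balance between higher and lower calls shifted with the centring. It was 20 to 6 with array medians at 0, 27 to 19 with the ratios as deposited, 29 to 21 with block medians at 0 and 19 to 13 with the medians of the 60 inferred source plates at 0. Of the original 26, 20 were called again with block medians at 0 and 19 with plate medians at 0. By block, the higher calls numbered 5, 0, 4, 0, 3, 2, 6 and 0 in blocks 1 to 8, and the lower calls 0, 1, 0, 1, 0, 0, 3 and 1. Block 7, with a median of 0.06 on low array 2, held the most calls, while blocks 1, 3 and 5, with medians below -0.3 there and 37.5% of tested probes, held 12 of the 20 higher ones. Whether calls go with block position was not tested.

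Each regime was also set against its own controls in the same fit. At 8 h high 104 probes were higher (2%) and 88 lower (1.69%) of 5210, and at 8 h low 7 were higher (0.143%) and 3 lower (0.0611%) of 4906. Each level is a mean of 2 arrays, which correlated at 0.18 at high and at -0.36 at low. Values of opposite sign cancel in such a mean, so the low counts cannot show how strong the response to low UV-B was. Of the 20 probes higher in the comparison of intensities, 18 were above control at 8 h high and 0 at 8 h low. Of the 6 lower probes, 3 were below control at 8 h high and 0 at 8 h low. These counts share the high and low arrays with the comparison itself and are no separate evidence.

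Protein folding in the endoplasmic reticulum had 2 called probes. Protein disulfide isomerases form and rearrange disulfide bonds in newly made secretory proteins, and calnexin holds glycoproteins until they are folded. The PDIL1-2 probe read 0.81 and 0.77 on the high arrays and -0.07 and -0.24 on the low arrays. The high arrays were nearly equal and both low arrays lay slightly below 0, with no overlap. The difference was 0.95 ± 0.19 (SE, n = 2 arrays per regime), a fold of 1.93 (limma adjusted p = 0.00994). The SEs of this fit rest on a spread shared by its 8 arrays, not on the compared arrays alone. With the 4 compared arrays alone and the same orientation term, the SE of this probe was 0.23. The ratio of this PDIL1-2 probe was between -0.05 and 0.21 on the arrays of 2 h high and 4 h medium. Without low array 2 the fitted difference was 0.84 (adjusted p = 0.259). A second PDIL1-2 probe read 0.25 and 0.06 at high and -0.14 and -0.45 at low. It showed the same order with a smaller difference of 0.45 ± 0.19 (limma adjusted p = 0.353). One more probe had values on the first arrays alone, 0.26 at high and 0.06 at low, and was not tested. The average over the gene's probes differed by 0.63 and was not called (limma adjusted p = 0.157).

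The CNX probe read 0.86 and 0.57 on the high arrays and 0.26 and -0.69 on the low arrays. Both high arrays were above both low arrays, but low array 1 read above 0 as well and low array 2 well below 0. The difference was 0.93 ± 0.20 (SE, n = 2 arrays per regime), a fold of 1.91 (limma adjusted p = 0.0202). It was 0.46 against low array 1 and 1.40 against low array 2. The fit without low array 2 gave 0.56 (adjusted p = 0.549). With block medians at 0, PDIL1-2 was at 0.81 (limma adjusted p = 0.0204) and CNX at 0.75 (limma adjusted p = 0.0375), so both kept their calls. In that setting the PDIL1-2 probe read 0.64 and 0.93 at high and -0.14 and 0.10 at low. How close its arrays lay within a regime thus depended on the centring. Over all alternatives tried, the adjusted p of PDIL1-2 ran from 0.00209 to 1 and that of CNX from 0.00443 to 1.

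The list of protein folding genes had 8 tested probes, of which 2 were called higher and 0 lower, beside 20 higher of all 4872 probes (0.411%) and 4 of 352 named ones (1.14%). Of the 8, 5 had a positive difference and 3 a negative one, with a median of 0.28. Over all tested probes 2616 differences were positive and 2256 negative, with a median of 0.02, and over named probes 185 and 167, with a median of 0.01. The sign counts of the lists below are descriptions to be read beside these, and no list was tested as a group. The disulfide isomerase PDIL1-1 was at 0.45 and PDIL5-4 at -0.23. The HSP70 gene hsp70-4 was at -0.15, the calreticulin crt2 at -0.13 and the mitochondrial chaperonin CPN60I at 0.11. None of these 5 passed the test, with limma adjusted p of at least 0.40. Set against each low array alone, the median of the list was 0.17 for array 1 and 0.24 for array 2.

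MMT1 makes S-methylmethionine, a form in which plants store and transport sulfur. Its probe read 0.63 and 0.35 on the high arrays, -0.0034 on low array 1 and -1.16 on low array 2. The low value of array 2 made up most of the distance, and the regimes did not overlap. The difference was 1.07 ± 0.22 (SE, n = 2 arrays per regime), a fold of 2.10 (limma adjusted p = 0.0132). Against low array 1 it was 0.49 and against low array 2 it was 1.65. Without low array 2 the fit gave 0.51 (adjusted p = 0.736). With block medians at 0 the difference was 0.94 and the call was lost (limma adjusted p = 0.0682). Its adjusted p over all alternatives ran from 0.000711 to 0.971.

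MMT1 was the only called member among 10 tested probes of nitrogen and sulfur assimilation, of which 6 were positive and 4 negative (median 0.14). The nitrate reductase NNR1 was at 0.42 (0.29 and -0.08 at high, 0.06 and -0.70 at low) and the glutamine synthetase gln1 at -0.30 (-0.21 and -0.02 at high, 0.05 and 0.31 at low). Neither passed the test. For NNR1 the regimes overlapped, and for gln1 they did not. The sulfite reductase gene sir was at 0.11.

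Defence genes held the fourth called probe. The psei2 probe read 0.51 and 0.71 on the high arrays and -0.11 and -0.36 on the low arrays. Both high ratios were above 0 and both low ratios below 0. Against control the level at 8 h low did not pass (limma adjusted p = 0.418). The difference was 0.85 ± 0.19 (SE, n = 2 arrays per regime), a fold of 1.80 (limma adjusted p = 0.0310). At 2 h high the same probe read -0.39 and -0.58. Without low array 2 the fitted difference was 0.74 (adjusted p = 0.327). With block medians at 0 and both low arrays kept, the difference was 0.65 and the call was lost (limma adjusted p = 0.118). In that setting psei2 read -0.25 and 0.13 on the low arrays. Over all alternatives its adjusted p ran from 0.00962 to 1. One of the 3 spots had no value on high array 1.

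Of 10 tested defence probes 9 were positive and 1 was negative, with a median of 0.28, and psei2 alone was called (0.411% of all probes were called higher, and 2616 of 4872 were positive). The hypersensitive response gene hir1 was measured by 2 probes, at 0.67 (limma adjusted p = 0.192) and 0.50 (limma adjusted p = 0.348). The first read 0.42 and -0.14 at high and 0.23 and -1.29 at low, so the regimes overlapped and low array 2 alone was far from the others. The second read 0.28 and 0.46 at high and 0.24 and -0.49 at low, without overlap. The pathogenesis-related gene PR-5 was at 0.30, the cysteine proteases ccp1 and ccp2 at 0.26 and 0.22, and psei3 at 0.23. The list's median was 0.17 against low array 1 and 0.42 against low array 2.

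The chitinase gene chn1, whose product cleaves chitin of fungal cell walls, had the highest ratios of any named probe at 8 h high. It read 2.70 and 3.20 on the high arrays and 0.12 on low array 1. All 3 of its spots were blank on low array 2, so the comparison of 4 arrays did not test it. In the fit without low array 2 the difference was 2.87 ± 0.26 (SE, n = 2 high arrays and 1 low array), a fold of 7.31 (limma adjusted p = 0.00105). With block medians at 0 in that fit it was 2.95 (limma adjusted p = 0.0379). The low side is a single array with no spread of its own, so these p-values take its spread from the other groups. At 2 h high the ratios were -0.37 and -0.67, and at 4 h medium 0.10 and -0.31. Positive ratios well away from 0 were thus seen on the 2 arrays of 8 h high alone among the 7 arrays with a value.

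**Figure D4:**
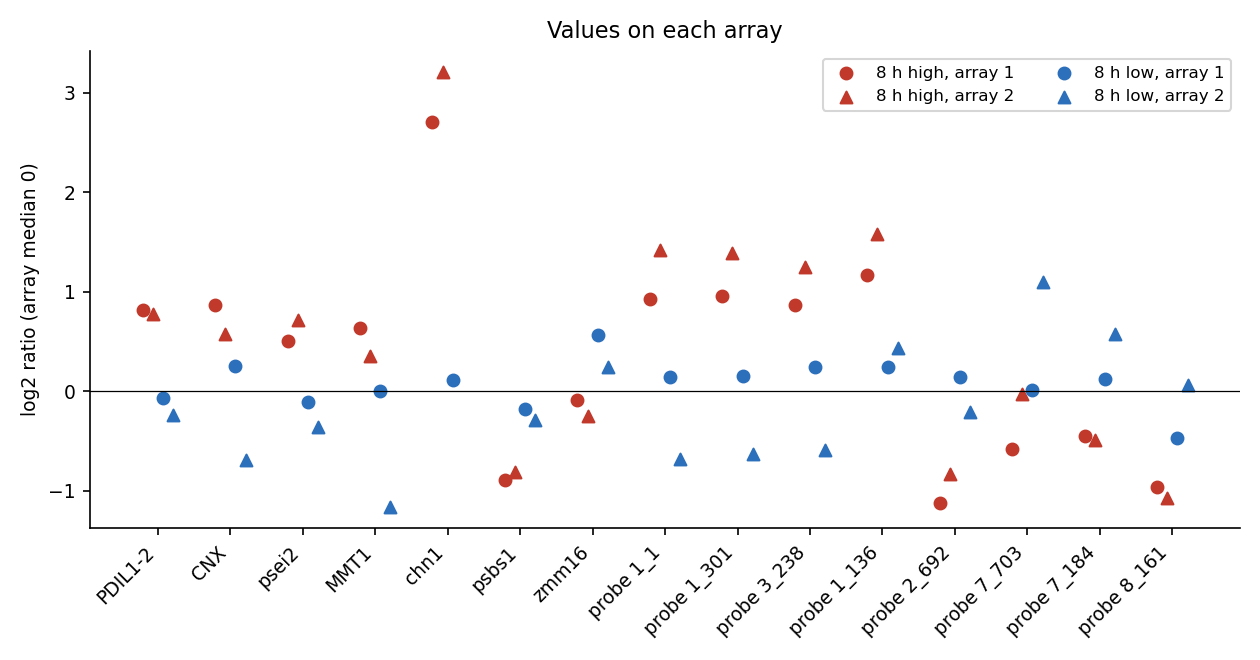
Log2 ratios on each array (array median 0) for the 4 called named probes PDIL1-2, CNX, psei2 and MMT1, for chn1, psbs1 and zmm16, and for 8 called probes without a gene name. Red marks 8 h high and blue 8 h low, circles array 1 and triangles array 2. chn1 has no value on low array 2, and its high arrays read 2.70 and 3.20.

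The largest called differences were those of probes with no gene name here, given by block and position in the block. Probe 1_1 read 0.93 and 1.42 at high and 0.14 and -0.68 at low, a difference of 1.45 ± 0.22 (SE), a fold of 2.73 (limma adjusted p = 0.000404). Probe 1_301 read 0.96 and 1.39 at high and 0.15 and -0.63 at low, a difference of 1.42 ± 0.21 (SE), a fold of 2.67 (limma adjusted p = 0.000404). These probes had nearly the same value on each of the 4 arrays at 8 h, while at 2 h high they read -0.08 and 0.12 for 1_1 and -0.02 and -0.14 for 1_301, and whether they carry the same sequence was not analysed here. On low array 2, probe 1_1 rested on 1 spot. Probe 3_238 read 0.87 and 1.25 at high and 0.24 and -0.59 at low, with a difference of 1.24 ± 0.21 (SE, limma adjusted p = 0.00263). Probe 1_136 read above 0 on all 4 arrays, at 1.16 and 1.57 at high and 0.24 and 0.43 at low. Its difference of 1.03 ± 0.19 (SE, limma adjusted p = 0.00605) was larger against low array 1 than against low array 2. It also read 0.50 and 0.95 at 4 h medium. The fits without low array 2 gave these probes 0.94, 1.01, 0.84 and 0.99, in the order named, each with an adjusted p of at least 0.259.

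Among the lower probes, 2_692 read -1.13 and -0.83 at high and 0.14 and -0.21 at low, a difference of -0.94 ± 0.20 (SE), a fold of 1.92 (limma adjusted p = 0.0132). It was far below control at high and near it at low, and without low array 2 it was at -1.17 (adjusted p = 0.132). Probe 8_161 read -0.97 and -1.07 at high and -0.48 and 0.06 at low, a difference of -0.81 (limma adjusted p = 0.0466). For the next 2 probes low array 2 read above control. Neither passed against control at 8 h low (limma adjusted p of 0.0927 for 7_703 and 0.257 for 7_184). Probe 7_703 read -0.58 and -0.03 at high and 0.02 and 1.10 at low, a difference of -0.86 (limma adjusted p = 0.0418). Probe 7_184 read -0.45 and -0.49 at high and 0.12 and 0.57 at low, a difference of -0.82 (limma adjusted p = 0.0474). At 2 h high both read well above control, at 1.17 and 1.30 for 7_703 and at 1.31 and 0.96 for 7_184. The last probes inside the threshold were 7_19 at -0.78 and 7_301 at 0.77 (limma adjusted p of 0.0474 and 0.0475), and the first outside it were 2_344 at 0.78 (0.0520) and 6_506 at -0.75 (0.0661).

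Genes of photosynthesis gave no call in either direction among 10 tested probes, of which 2 were positive and 8 negative (median -0.15), beside 2616 positive and 2256 negative over all probes (median 0.02). The list's median was -0.19 against low array 1 and -0.14 against low array 2. The gene psbs1, for the photosystem II subunit that lets excess light energy leave as heat, read -0.90 and -0.82 at high and -0.18 and -0.29 at low. All 4 ratios were below 0, and the arrays of each regime lay close together. The difference of -0.62 ± 0.19 did not pass the test (limma adjusted p = 0.170). It was -0.68 against low array 1 and -0.57 against low array 2. Against its own controls psbs1 was lower at 8 h high (-0.86, limma adjusted p = 3.13e-05), and at 8 h low it was at -0.23 (limma adjusted p = 0.418). The Rubisco activase rca1 was at -0.52 (-0.26 and -0.08 at high, 0.01 and 0.70 at low), mostly through low array 2. The gene pep7 was at -0.33 (-0.30 and -0.47 at high, -0.17 and 0.06 at low), without overlap. The dikinase Ppdk1 was at -0.26, the protochlorophyllide reductase por at -0.17, lhcb5 at -0.08 and the Rubisco small subunit ssu1 at -0.07. The light-harvesting gene Cab-m7 was at 0.14 and 0.31 in 2 probes.

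Starch and sucrose metabolism had 12 tested probes and no call, with 4 positive and 8 negative differences (median -0.12). The acid invertase ivr2, which splits sucrose, was at -0.42 in one probe (-0.25 and -0.20 at high, -0.08 and 0.47 at low) and at 0.11 in another. At 2 h high the first of these read 1.42 and 1.01. The sucrose phosphate synthase sps1 was at -0.34 (-0.41 and -0.47 at high, -0.22 and 0.02 at low), without overlap. The starch branching enzyme gene ae1 was at 0.45 and 0.01 in 2 probes, and the first rested on a low array 2 value of -0.96. None of these passed the test. The plastid phosphate translocator ppt1, outside the list, was at -0.41 (limma adjusted p = 0.406).

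Phenylpropanoid synthesis, the route to UV-screening compounds and lignin, was represented by 2 tested probes of 5, neither called. PAL1, the enzyme at its entry, read 0.40 and 0.76 at high and 0.27 and 0.17 at low. All 4 arrays were above control and the high arrays higher, with a difference of 0.36 ± 0.20 (SE, limma adjusted p = 0.503). Against control PAL1 was higher at 8 h high (0.58, limma adjusted p = 0.00810), and at 8 h low it was at 0.22 (limma adjusted p = 0.454). The O-methyltransferase pOMT1 read -0.46 and -0.89 at high and -0.08 and -0.38 at low, with a difference of -0.44 (limma adjusted p = 0.380).

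Oxidative stress and detoxification genes gave 0 calls among 10 tested probes, of which 8 were positive and 2 negative, beside 2616 and 2256 over all probes. Their median of 0.19 became -0.05 against low array 1 and 0.29 against low array 2, so its sign depended on the low array. The aldehyde dehydrogenase aldh5 was at 0.56, and its regimes overlapped (0.33 and -0.16 at high, 0.07 and -1.01 at low). The glutathione transferase GST39 was at 0.44 (0.44 and 0.04 at high, 0.04 and -0.43 at low). The copper-zinc superoxide dismutase Sod4A read 0.49 and 0.41 at high and -0.03 and 0.28 at low, a difference of 0.33. On high array 2 it rested on 1 spot. The catalase cat1 was at 0.07, and gst1 and gst2 were at -0.09 and -0.10. The safener-induced gene In2-1, outside the list, read 0.74 and -0.04 at high and 0.24 and -0.82 at low. It rested on 1 spot on high array 2 and on 1 spot on low array 1. Its difference was 0.64 (limma adjusted p = 0.188), and the regimes overlapped.

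**Figure D5:**
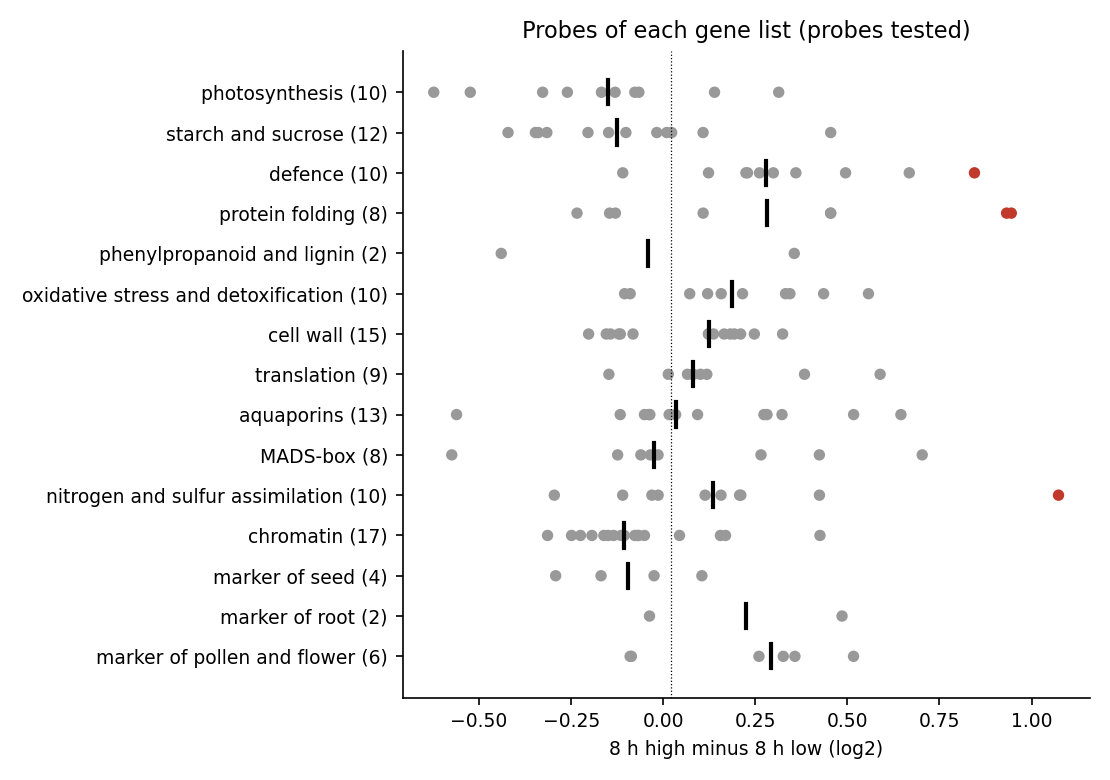
Difference of 8 h high minus 8 h low (log2) for every tested probe of the 15 gene lists (grey, not called; red, called), with the median of each list as a bar and that of all probes as a dotted line. The called probes are PDIL1-2 and CNX in protein folding, psei2 in defence and MMT1 in nitrogen and sulfur assimilation.

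The remaining lists held no called probe. Of 15 cell wall probes 9 were positive and 6 negative, and the median of 0.12 was -0.11 against low array 1 and 0.35 against low array 2. The cellulose synthase CesA-6 was at 0.32 and -0.08 in 2 probes, the glycine-rich protein gene grp1 at 0.25 and 0.12, and the expansin expa2 at -0.20. Of 13 aquaporin probes, 8 were positive and 5 negative (median 0.03). The tonoplast channel TIP4-1 was at 0.65 (0.31 and 0.41 at high, 0.12 and -0.69 at low) and the plasma membrane channel PIP1-3 at 0.52 (0.24 and -0.04 at high, 0.11 and -0.95 at low). The regimes overlapped for PIP1-3 and not for TIP4-1. PIP1-1 was at -0.56 in one probe (-0.25 and -0.42 at high, 0.13 and 0.32 at low) and at -0.05 in another.

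Among 8 MADS-box transcription factor genes, 3 were positive and 5 negative. The gene m28 was at 0.70 (limma adjusted p = 0.178) and zap1 at 0.42, each with overlapping regimes and a low array 2 value of -1.29 or -0.88. The gene zmm16 read -0.09 and -0.25 at high and 0.56 and 0.24 at low, a difference of -0.57 (limma adjusted p = 0.215). With block medians at 0 it was at -0.71 and passed (limma adjusted p = 0.0209), with an adjusted p under 0.05 in that setting for PDIL1-2 and CNX as well and for no other named probe. At 2 h high zmm16 read 1.75 and 1.94.

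Translation genes were positive in 8 of 9 probes, where 2616 of all 4872 were positive. Their median of 0.08 was 0.18 against low array 1 and -0.08 against low array 2. The ribosomal protein gene rpl39 read 0.62 and 0.07 at high and 0.17 and -0.65 at low, a difference of 0.59 with overlapping regimes (limma adjusted p = 0.215). The elongation factor EF1A was at 0.38 in one probe (-0.17 and -0.09 at high, 0.14 and -1.17 at low) and -0.15 in another. The first of these rested on 1 spot on high array 1. Chromatin genes were negative in 13 of 17 probes (median -0.11), where 2256 of all 4872 were negative. The methyl-binding gene mbd111 was at -0.31 and -0.08, sgb102 at -0.25, and the histone deacetylase Hda1 at 0.43 and -0.11 in 2 probes. Among the other named probes, LOC100101527 (-0.59), LOC542721 (-0.49), LOC732771 (-0.48) and vpp3 (0.57) also did not pass the test. Of these, LOC542721 had the closest arrays within a regime, at -0.52 and -0.49 at high and -0.11 and 0.07 at low. Among 51 genes with several tested probes, 24 had probes of opposite sign.

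Markers of other organs gave no call. The 4 tested probes of seed globulins and the seed factor PBF lay between -0.29 and 0.10, and the root genes nas1 and nas2 were at -0.04 and 0.49. The 6 tested pollen and flower probes lay between -0.09 and 0.52 (median 0.29), of which Zea m 3 was at 0.52, PRO5 at 0.36 and 0.26, and mgs2 at 0.33 and -0.09. Against low array 1 the median of these 6 was 0.04, and against low array 2 it was 0.43. As ratios, these values do not show whether a marker was expressed, so the organ could not be checked, and the part of organ composition in the calls was not tested.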

How the data were processed

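The deposited values are log2 ratios of the 2 channels of each array. Background correction, normalization and the reason for blank spots are upstream steps of the authors not given in the sources used here. Base 2 was read from repeated values, which equalled ratios of whole numbers up to 20 in base 2 (5.26% to 29.6% of repeated values per array) and in no case in base e or 10 (tolerance 2e-08). Members and gene lists were chosen with earlier results of these data known.

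Array medians were set to 0, and each run of 3 spots was averaged to give 5760 probes. Of these, 404 carry 1 gene name from the platform annotation, covering 329 genes, of which 314 were found in a table of reference genes (Zm-B73-REFERENCE-NAM-5.0) and 43 have a LOC number only. Gene lists were matched on symbols and synonyms, as most symbols of that table are LOC numbers, and 5 mismatches were dropped by name. The functions lmFit and eBayes of limma (version 3.58.1, under R 4.3.3) fitted the 8 arrays of the 4 regimes together, with a term per regime and a probe-wise term for channel orientation (3 residual degrees of freedom, prior 31.0), and Benjamini-Hochberg adjustment at 0.05. Probes needed a value on the 4 arrays compared. The orientation term equals the array number. The difference between arrays 1 and 2 correlated between regimes at 0.20 to 0.56 in all 6 pairs of regimes, and at 0.51 between 8 h high and 8 h low. The fit was tested on simulated data. A single probe tested over 2 against 2 arrays by exact permutation cannot go below p = 0.333, so no such test was made.

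Named genes are the called named probes, filled to 10 in each direction by smallest unadjusted p, up to 3 members of each list, all probes of a gene so named, chn1, and up to 4 called unnamed probes in each direction. Alternatives were no orientation term, the 4 arrays alone, leaving out each array, turned signs, 5 other centrings or scalings, array weights, spot filters and gene averages. The combinations of block medians with another choice were chosen after seeing the data. The planned search of promoters for motifs was not made, as no promoter sequences were used here.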

Additional observations from a re-analysis of the deposited data

Results flagged for a closer look

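The results below are differences between the intensities after the same 8 h, and each passed limma's test of the difference itself. Among named probes these are PDIL1-2 at 0.95, MMT1 at 1.07, CNX at 0.93 and psei2 at 0.85 (log2, 8 h high minus 8 h low). Among probes with no gene name, 1_1 at 1.45, 1_301 at 1.42, 3_238 at 1.24 and 1_136 at 1.03 were higher at high intensity. Probes 2_692 at -0.94, 7_703 at -0.86, 7_184 at -0.82 and 8_161 at -0.81 were lower. With array medians at 0, none of these 12 kept its call in the fit without low array 2. With block medians at 0 in that fit, 2_692 was at -1.17 and kept its call. With 2 arrays a regime, no array could be tested as an outlier of its group.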

How the results depend on the processing

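The count of called probes was 26 (20 higher, 6 lower), all with separated regimes. Without the replicate block limma called 0, with array medians (204 at unadjusted p under 0.05) or block medians (365) at 0. The calls thus depended on the pairing by array number. With the 4 arrays alone it was 16 (15 and 1, 15 separated) with the block and 2 (2 and 0, 2 separated) without it. Leaving out one array at a time gave 0 to 724 (0 to 550 higher, 0 to 174 lower, 0 to 724 separated). With the sign of array 2 of every regime turned it was 0 (79 at unadjusted p under 0.05), and with low array 2 turned 0 (662 at unadjusted p under 0.05). With low array 1 turned it was 241 (163 and 78, 234 separated). Ratios as deposited gave 46 (27 and 19, 41 separated), block medians at 0 gave 50 (29 and 21, 50 separated), and scale normalization 43 (30 and 13, 43 separated). Plate medians at 0 gave 32 (13 lower) and quantile normalization 35 (11 lower). Array weights left 3 (3 and 0, 3 separated). The weights were 0.504 at 8 h high and 0.287 at 8 h low, against 2.56 at 2 h high and 2.69 at 4 h medium. With them PDIL1-2, MMT1, CNX and psei2 lost their calls, at limma adjusted p of 0.370, 0.163, 0.370 and 0.675. A value on 1 array per regime gave 41 (30 and 11, 39 separated). Among combinations chosen after seeing the data, block medians at 0 gave 4 (3 and 1, 4 separated) without low array 2 and 500 (291 and 209, 500 separated) without low array 1. The other settings, namely all 3 spots, the median of spots, gene averages and leaving out plates 37 and 39, gave 23 to 27.

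With array 2 of every regime turned, differences changed sign for PDIL1-2 (-0.064), MMT1 (-0.44), CNX (-0.33), psei2 (-0.23), 1_1 (-0.66), 1_301 (-0.61), 3_238 (-0.61), 1_136 (-0.11), 7_703 (0.27), 7_184 (0.25) and 8_161 (0.32). With low array 2 alone turned, MMT1 (-0.088) and 7_703 (0.23) did. The cause was not tested. Of the 12 called probes described, 199 values under alternatives kept direction and call, and 122 kept direction but not the call.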
